A study of Rattus norvegicus with 8 samples.

Results

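The genes of fatty acid uptake and oxidation were followed in the soleus, a slow postural calf muscle, of female rats. The list held 33 genes, and a gene was measured through every probe set whose only platform symbol was that gene. Of the 33 genes, 31 had such a probe set, 51 probe sets in all among the 8740 on the array. Etfb and Acaa1a had none and are not analysed here. Of the 31, 30 genes (47 probe sets) were bright enough to be tested, and both probe sets of Scd, the stearoyl-CoA desaturase, were too dim, with no array above 25.2. A further 7 probe sets carried the symbol of a member together with another symbol, 5 of them for Cd36, and were not used.

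The rats fell into 3 groups, which differed in the labels only by cage activity, unloading and walking. Control rats had 12 h of ordinary cage activity. In unloaded rats the hindlimbs bore no weight for 12 h. Walked rats were unloaded for as long and next spent 2 h in all on a treadmill. They walked in bouts of 30 min parted by 30 min of cage activity over 4 h. Treadmill walking, that cage activity and the time since unloading began therefore cannot be told apart. The labels give neither strain nor age, and they name no engineered allele. Each array held RNA pooled from 8 to 10 rats, with 3 control, 3 unloaded and 2 walked pools, so errors and p-values measure the spread between pools and not between rats.

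Long-chain fatty acids reach a muscle fibre from albumin or from lipoproteins cut by lipoprotein lipase at the capillary wall, cross the membrane with the help of CD36 and travel bound to small binding proteins. Acyl-CoA synthetases activate them, the carnitine shuttle carries them into the mitochondrion, and the β-oxidation spiral shortens them while passing electrons through the electron transfer flavoprotein to the respiratory chain. Malonyl-CoA, made by acetyl-CoA carboxylase, inhibits the first enzyme of the shuttle. The soleus is rich in slow oxidative fibres and draws much of its energy from this route.

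The deposited values were signal intensities on a linear scale and are given here as signal. All 8 arrays had nearly the same trimmed mean, 148.3 to 148.8, and correlated at 0.9495 to 0.9626 within groups and 0.9128 to 0.9451 between groups. Control pool 3 correlated least with its group, at 0.9495 to 0.953, against 0.9614 between the other control pools, and it had the lowest signal of the 8 arrays for 10 of the 30 tested members (33.3%, against 14.5% of all 3154 tested genes). Values without it are given below for Cd36, Decr1 and Ehhadh. The genes of the soleus fibre list were bright in every group, with summed signals of 23989 to 26624 in the control pools.

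Differences are log2 fold changes ± SE from limma, and a gene is called, or said to rise or fall, where the p-value adjusted over all 5244 tested probe sets was under 0.05. Where a gene had several probe sets, the brightest stands for it in counts. The members and lists were chosen with earlier results of these data known, so shares above the background are not an independent result. After 12 h of unloading 5 of the 30 tested members rose, Cd36, Fabp4, Acsl6, Decr1 and Ehhadh (16.7%, against a background of 3.71% of all genes), and 0 fell (background 2.5%). At an unadjusted limma p under 0.05, 6 were higher and 0 lower, against 265 and 357 of all 3154 genes. In 7 members every unloaded array lay above every control array (23.3%, background 9.61%), and in 0 every unloaded array lay below (background 15.4%). The median difference of the 30 was 0.14, against -0.08 for all genes. Ehhadh, among these 5, passed the filter on dim signals only through the group in which it was high, so its place among the 5 and the 7 had to go with a difference. Under a stricter filter that removed it, 4 of 25 members were called. Of all genes kept by that filter 213 were called in either direction, against 196 of 3154 in the main fit. How many genes that filter kept is not given here, so 213 is not a share to set beside 4 of 25.

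After walking, 21 of the 30 tested members (70%) had a mean below that after unloading alone, as had 1763 of all 3154 tested genes. Of the 30, 3 fell, Cpt1a, Cpt2 and Etfa (10%, background 1.74%), and 0 rose (background 2.35%). At an unadjusted limma p under 0.05, 11 were lower and 0 higher, against 343 and 190 of all 3154 genes. Both walked arrays lay below all 3 unloaded arrays in 14 members (46.7%, background 22.7%) and above them in 2, Acads and Acaca (6.67%, background 12.8%). The median difference was -0.22, against -0.05 for all genes. Ehhadh is among the 11 and the 14 and Acaca among the 2, and both had a group mean below the filter, which bears on these counts too. Against control, 2 members were lower in the walked pools, Vldlr and Cpt1a (6.67%, background 4.63%), and 0 were called higher (background 3.74%). At an unadjusted limma p under 0.05, 7 were lower and 4 higher, against 476 and 252 of all 3154 genes. With the stricter filter, or with the probe sets of a gene averaged, 2 were called higher, Cd36 and Fabp4. Over all genes, calls in either direction then numbered 304 and 317, against 264 in the main fit. These were not split by direction, so they give no background for the 2 called higher. Every walked array was higher than every control array in 8 members (26.7%, background 14.3%) and lower in 9 (30%, background 27.7%). The last pair of shares is close to the background.

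These comparisons share arrays: the unloaded pools serve in both comparisons with unloaded soleus and the control pools in both comparisons with control, so they are set side by side and not related to each other. In 23 of the 30 tested members (76.7%, against 33.6% of all genes) the highest of the 8 arrays was an unloaded one, Ehhadh included. In 8 members (26.7%, background 13.3%) both walked arrays lay below all 6 others. These were Vldlr, Cpt1a, Cpt1b, Cpt2, Slc25a20, Acadvl, Etfa and Acaa2, which include 4 of the 5 carnitine shuttle genes measured.

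**Figure D1:**
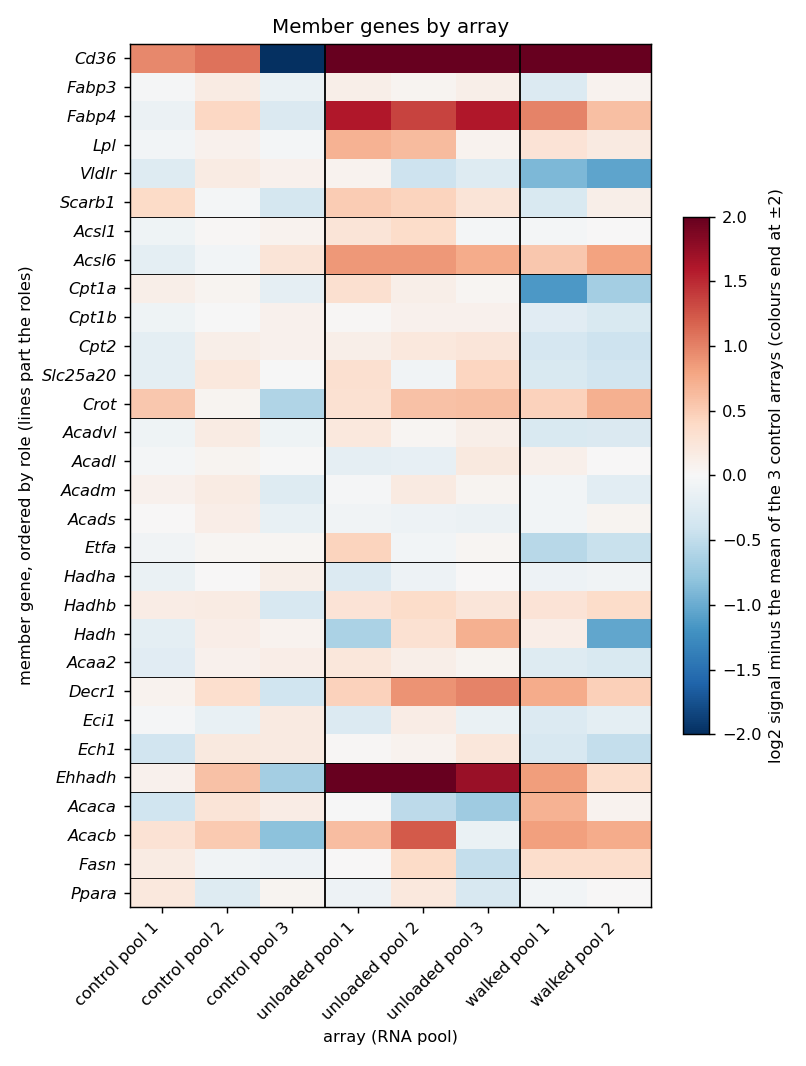
Signal of the 30 tested members (rows, ordered by role) on the 8 arrays (columns), as log2 signal minus the mean of the 3 control arrays, with colours ending at ±2. Cd36, Fabp4, Acsl6, Decr1 and Ehhadh are red in all unloaded pools, the carnitine shuttle genes other than Crot are blue in both walked pools, and Cd36 is darkest blue in control pool 3.

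**Figure D2:**
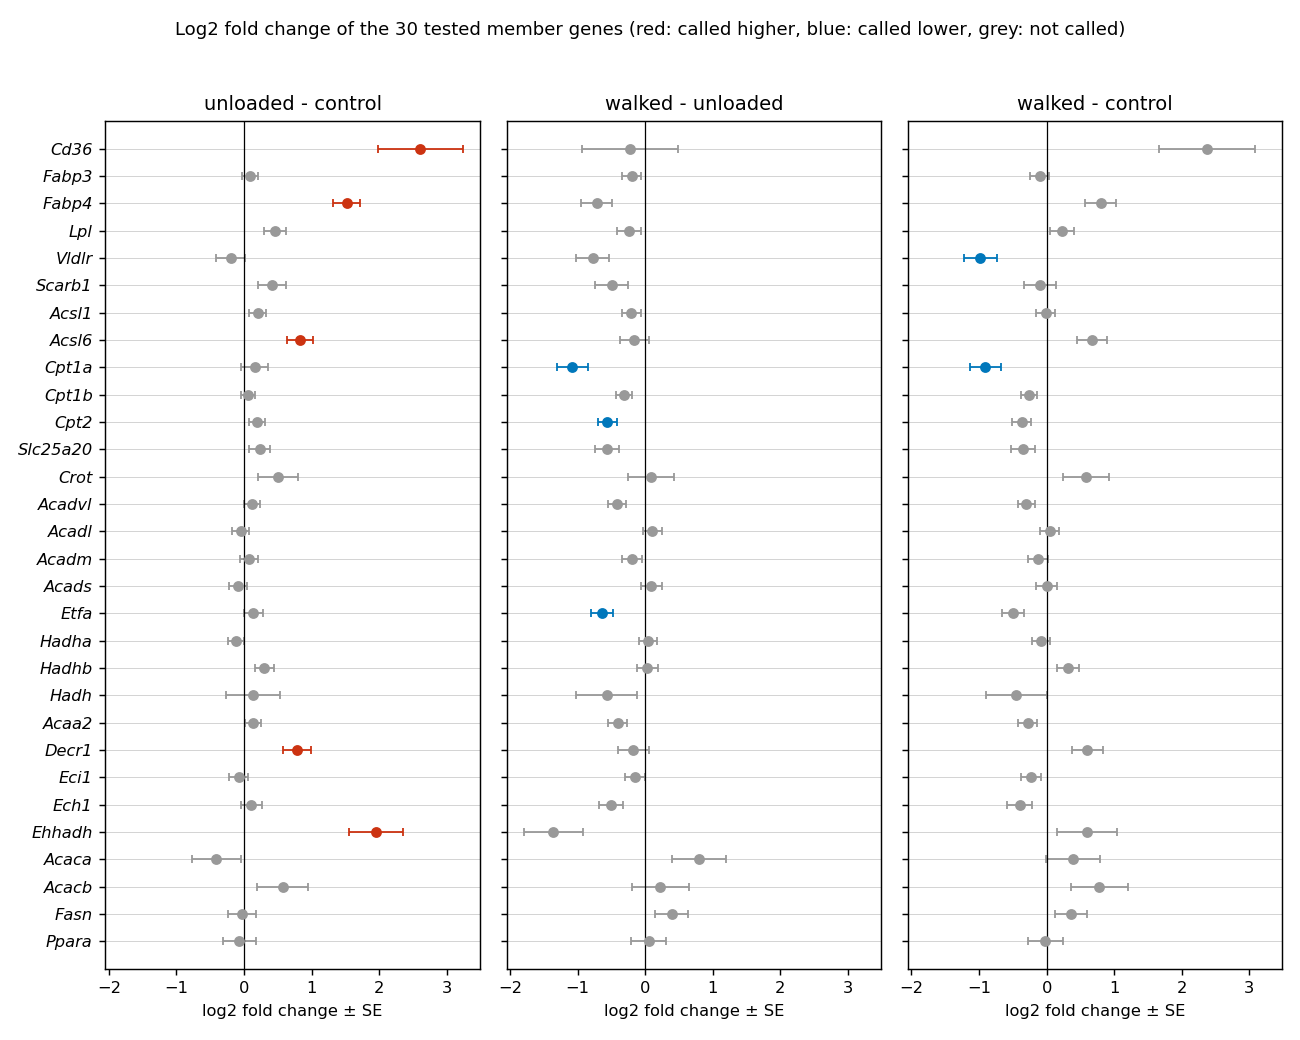
Log2 fold change ± SE (x axis) of the 30 tested members (y axis) in the 3 comparisons, 1 panel each, on a common scale. Red points were called higher and blue points lower: 5 red points for unloaded against control, 3 blue for walked against unloaded and 2 blue for walked against control.

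Of the uptake genes, Cd36, the membrane translocase for long-chain fatty acids, and Fabp4, the adipocyte-type fatty acid binding protein that is also made by capillary endothelium and macrophages, rose with unloading. Both stayed above control after walking, on every array. The median difference of the 6 uptake genes tested was 0.44 for unloaded against control and -0.37 for walked against unloaded. In whole muscle, a change in the number of cells of a type and a change in RNA per cell cannot be told apart.

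The 250 bases before the start of Cd36 (GRCr8 from RefSeq, chr4:18246332-18246581, + strand) are shown because this gene rose on both of its probe sets.
Cd36: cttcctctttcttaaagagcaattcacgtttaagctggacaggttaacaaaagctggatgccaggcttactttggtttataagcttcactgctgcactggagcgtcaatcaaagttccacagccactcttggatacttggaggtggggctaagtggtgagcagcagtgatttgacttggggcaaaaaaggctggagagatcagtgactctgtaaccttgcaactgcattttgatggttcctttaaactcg

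The brighter Cd36 probe set gave signals of 382, 418 and 47.1 in control pools 1 to 3, of 1146, 1180 and 1260 in the unloaded pools and of 1032 and 999 in the walked pools. All 5 unloaded and walked arrays were above all controls, and control pool 3 was far below the other controls. The rise with unloading was 2.61 ± 0.63 (6.09-fold, adjusted p = 0.0289), walked minus unloaded was -0.23 ± 0.71 and walked minus control was 2.37 ± 0.71 (adjusted p = 0.0594). Without control pool 3 the rise was 1.58 ± 0.12 (adjusted p = 2.4e-05) and walked minus control was 1.35 (adjusted p = 0.000214). Walked minus control was also called without control pool 1 (2.85, adjusted p = 0.041) or 2 (2.92, adjusted p = 0.036). The rise with unloading lost its call without unloaded pool 1, 2 or 3 or walked pool 1 (adjusted p at most 0.0927).

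The dimmer Cd36 probe set gave 206, 308 and 57.1 in the control pools, 741, 762 and 733 in the unloaded pools and 578 and 654 in the walked pools. Its order of arrays was alike: control pool 3 lowest, unloaded pools highest and close together, walked pools between. The rise was 2.28 ± 0.46 (adjusted p = 0.0119), or 1.56 ± 0.17 without control pool 3, and the call was lost without unloaded pool 2 (adjusted p = 0.0505). Walked minus control was called on this probe set, at 2.00 ± 0.51 (adjusted p = 0.0361), or 1.29 without control pool 3 (adjusted p = 0.0026), a call lost without unloaded pool 1 or 2 or either walked pool (adjusted p up to 0.191). On both probe sets the rise with unloading lost its call in limma without a trend (adjusted p = 0.0981 brighter, 0.0568 dimmer). With no filter on dim signals it was lost on both too (adjusted p = 0.188 and 0.125).

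Fabp4 gave 92.3, 133 and 81.6 in the control pools, 304, 254 and 304 in the unloaded pools and 200 and 152 in the walked pools. The 3 groups did not overlap, with the walked arrays between. Fabp4 rose 2.86-fold with unloading (1.52 ± 0.20, adjusted p = 0.000982), and the call held when any of the 8 arrays was left out, with differences of 1.37 to 1.72. Walked minus unloaded was -0.72 ± 0.23 (adjusted p = 0.121) and walked minus control 0.80 ± 0.23 (adjusted p = 0.0502), both short of the threshold. Fabp3, the muscle-type binding protein, was called in no comparison: its signal was 5042, 5737 and 4677 in the control, 5548, 5332 and 5545 in the unloaded and 4236 and 5380 in the walked pools, and unloaded minus control was 0.09 (95% interval -0.18 to 0.37).

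Since Cd36 and Fabp4 are also expressed in fat and capillary cells, markers of both were read on the same arrays. The summed signal of the 8 adipocyte markers on the array, of 12 listed, was 1556 to 1936 in the control, 1425 to 1741 in the unloaded and 1451 to 1838 in the walked pools, most of it from the Lep probe set. In limma 0 of the 6 bright enough to test were called in any comparison, with 0, 1 and 1 lower and 0 higher at an unadjusted p under 0.05 in the order of comparisons above. Plin1, which coats fat droplets, and Gpd1 were too dim to test, and no marker stood at 0 on every array. The 7 endothelial markers on the array, of 13 listed, summed to 441 to 519, 393 to 449 and 422 to 476, with 0 of the 5 tested called and 0 at an unadjusted p. The unloaded ranges of both lists overlapped the control ranges and reached lower. For adipocytes the lower reach came from Lep, at 1095, 940 and 1102 in the control and 731, 894 and 963 in the unloaded pools. Among the other tested adipocyte markers, Cebpa, Lipe and Cidea were higher in sign with unloading and Cfd and Pparg lower. A change in the amount of fat was not tested. The 9 leukocyte markers on the array, of 13 listed, summed to 875 to 1019, 879 to 1029 and 815 to 903. Of the 6 tested, Cd48 was called higher with unloading: it gave 37.7, 62.8 and 67.5 in the control, 156, 110 and 172 in the unloaded and 98.4 and 107 in the walked pools (unloaded minus control 1.40, adjusted p = 0.00634). Cd74 was called lower in walked against control (-0.65, adjusted p = 0.0334). The part of leukocytes in the values of Cd36 and Fabp4 was not tested.

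Lpl, lipoprotein lipase, had 3 probe sets and was called on none. The brightest gave 2170, 2401 and 2194 in the control, 3643, 3497 and 2360 in the unloaded and 2722 and 2557 in the walked pools, so that unloaded pool 3 lay among the controls. Unloaded minus control was 0.46 ± 0.16 (adjusted p = 0.111). On the other probe sets it was 0.39 ± 0.21 and 0.35 ± 0.24.

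Vldlr, the very low density lipoprotein receptor, gave 64.8, 86.7 and 81.8 in the control, 80.8, 58 and 64.3 in the unloaded and 41.2 and 37.2 in the walked pools. Both walked arrays were below the 6 others, which overlapped. Walked minus control was -0.98 ± 0.24 (adjusted p = 0.0321) and walked minus unloaded -0.78 ± 0.24 (adjusted p = 0.113). The call against control was lost without control pool 2 or 3 or either walked pool (adjusted p up to 0.17).

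Scarb1, the scavenger receptor that binds high density lipoprotein, had 3 probe sets with different results. The brightest gave 137, 102 and 82.1 in the control, 149, 143 and 125 in the unloaded and 84.6 and 113 in the walked pools, with walked minus unloaded at -0.50 ± 0.24 (adjusted p = 0.302). The next gave 48.5, 61.2 and 56.3, then 112, 101 and 58.7, then 68.6 and 51.3, and was called in no comparison. The dimmest gave 35.2, 31.6 and 40.6 in the control, 45.1, 15.4 and 49.7 in the unloaded and 5 and 5.11 in the walked pools, and was called lower in walked against unloaded (-2.69 ± 0.60, adjusted p = 0.0291) and against control (-2.82 ± 0.60, adjusted p = 0.0181). Its walked signals lay just above the floor of 4.1 set on all values, it passed the filter only through the other groups, and leaving out walked pool 1 or 2 ended both calls. With the floor at the 20th percentile these were -1.94 (adjusted p = 0.081) and -2.07 (adjusted p = 0.0402). The brighter probe sets do not share a fall of that size.

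**Figure D3:**
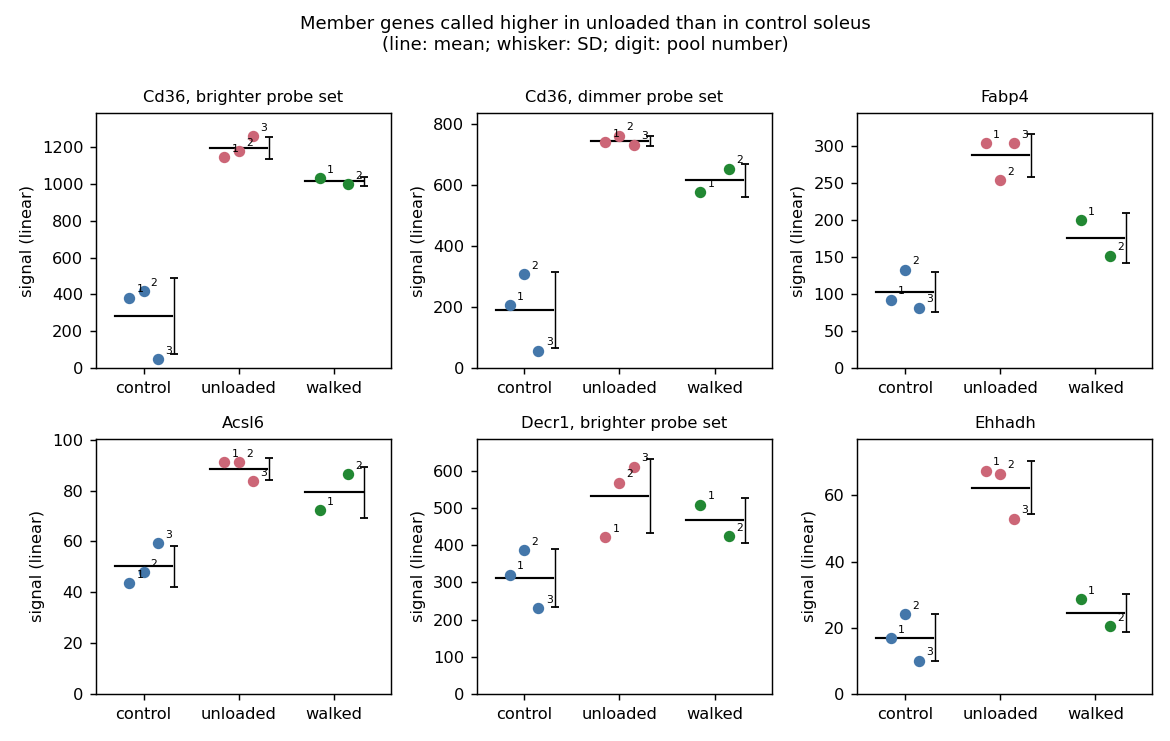
Signal (y axis, linear, from 0) of the 5 members called higher in unloaded than in control soleus, with both Cd36 probe sets, by group (x axis). Points are arrays with their pool number, lines are group means and whiskers are SD (n = 3, 3 and 2), and every unloaded array lies above every control array in each panel.

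Activation of fatty acids was represented by 2 acyl-CoA synthetases, of which Acsl6 rose and Acsl1 was not called on any of its 4 probe sets. Acsl6 gave 43.5, 47.9 and 59.2 in the control, 91.1, 91.2 and 83.6 in the unloaded and 72.3 and 86.5 in the walked pools. Every unloaded and walked array was above every control array. The rise was 0.83 ± 0.19 (1.78-fold, adjusted p = 0.0247), and its call was lost when either of pools 1 and 2 was left out in the control or the unloaded group (adjusted p up to 0.0795). Walked minus control was 0.67 ± 0.22 (adjusted p = 0.0799).

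On the brightest Acsl1 probe set, the synthetase isoform abundant in fat, heart and muscle gave 1306 to 1444 in the control, 1347 to 1781 in the unloaded and 1350 to 1393 in the walked pools. Unloaded minus control was 0.20 (95% interval -0.09 to 0.48) and walked minus unloaded -0.21 (-0.52 to 0.11). Across its 4 probe sets walked minus unloaded ran from -0.40 to -0.08.

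Of the 5 carnitine shuttle genes 2, Cpt1a and Cpt2, fell in walked against unloaded soleus (background 1.74%), and Cpt1a was also below control. In 4 of the 5 both walked arrays lay below all 6 others (background 13.3%). The median difference of the 5 was 0.19 for unloaded against control, with 0 called and 0 at an unadjusted limma p under 0.05. For walked against unloaded it was -0.56, with 4 lower at an unadjusted p, against 343 of all 3154 genes. The steps hold unlike numbers of genes, and differences between steps were not tested.

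The upstream 250 bases of the called shuttle genes are shown as the sequence next to their start sites (GRCr8 from RefSeq), Cpt1a at chr1:209995910-209996159 on the + strand and Cpt2 at chr5:127910819-127911068 on the - strand.
Cpt1a: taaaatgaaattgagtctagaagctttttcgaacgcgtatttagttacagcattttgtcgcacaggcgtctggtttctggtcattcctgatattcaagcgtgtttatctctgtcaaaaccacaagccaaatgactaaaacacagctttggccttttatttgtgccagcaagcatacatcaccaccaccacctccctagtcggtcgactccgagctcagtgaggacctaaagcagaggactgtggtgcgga
Cpt2: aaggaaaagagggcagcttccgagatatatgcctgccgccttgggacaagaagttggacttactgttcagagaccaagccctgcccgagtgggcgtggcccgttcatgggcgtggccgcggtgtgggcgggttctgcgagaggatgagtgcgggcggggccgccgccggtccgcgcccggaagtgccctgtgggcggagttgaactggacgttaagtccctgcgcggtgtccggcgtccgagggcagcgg

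Cpt1a, the liver-type outer membrane carnitine palmitoyltransferase, gave 86.2, 82.4 and 69.7 in the control, 99.1, 85.9 and 81.4 in the unloaded and 35.7 and 49.4 in the walked pools. The walked arrays stood clear of the other 6, which overlapped. Walked minus unloaded was -1.08 ± 0.23 (adjusted p = 0.021) and walked minus control -0.91 ± 0.23 (adjusted p = 0.0327), whereas unloaded minus control was 0.16 ± 0.20. The call against unloaded was lost when pool 1 of either group was left out (adjusted p up to 0.183), and that against control without control pool 1 or 2 or either walked pool (adjusted p up to 0.192).

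Cpt1b, the muscle-type enzyme of the same step, was called on neither probe set. The brighter gave 3241, 3428 and 3641 in the control, 3490, 3642 and 3629 in the unloaded and 2944 and 2793 in the walked pools. Both walked arrays were again the lowest of the 8. Walked minus unloaded was -0.32 ± 0.12 (adjusted p = 0.167) on the brighter and -0.44 ± 0.13 (adjusted p = 0.0989) on the dimmer probe set.

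Cpt2, the inner membrane carnitine palmitoyltransferase, gave 1051, 1304 and 1276 in the control, 1305, 1402 and 1418 in the unloaded and 956 and 908 in the walked pools. The 3 groups did not overlap, although unloaded pool 1 and control pool 2 were nearly equal. Cpt2 fell by 0.56 ± 0.14 in walked against unloaded soleus (adjusted p = 0.0463), a call close to the threshold that was lost in 6 of 8 fits with an array left out (all but those without control pool 1 or 3), with an adjusted p up to 0.258. Walked minus control was -0.37 ± 0.14 (adjusted p = 0.117).

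Slc25a20, the carnitine-acylcarnitine translocase, gave 302, 400 and 345 in the control, 433, 332 and 467 in the unloaded and 281 and 265 in the walked pools. The walked arrays were the lowest, and walked minus unloaded was -0.57 ± 0.18 (adjusted p = 0.125). Crot, the peroxisomal carnitine octanoyltransferase, did not follow the others: its brighter probe set gave 23.9 to 52.4 in the control, 44.7 to 54.9 in the unloaded and 49.6 and 59.4 in the walked pools. For Crot, walked minus unloaded was 0.09 ± 0.34, and neither of its probe sets was called.

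**Figure D4:**
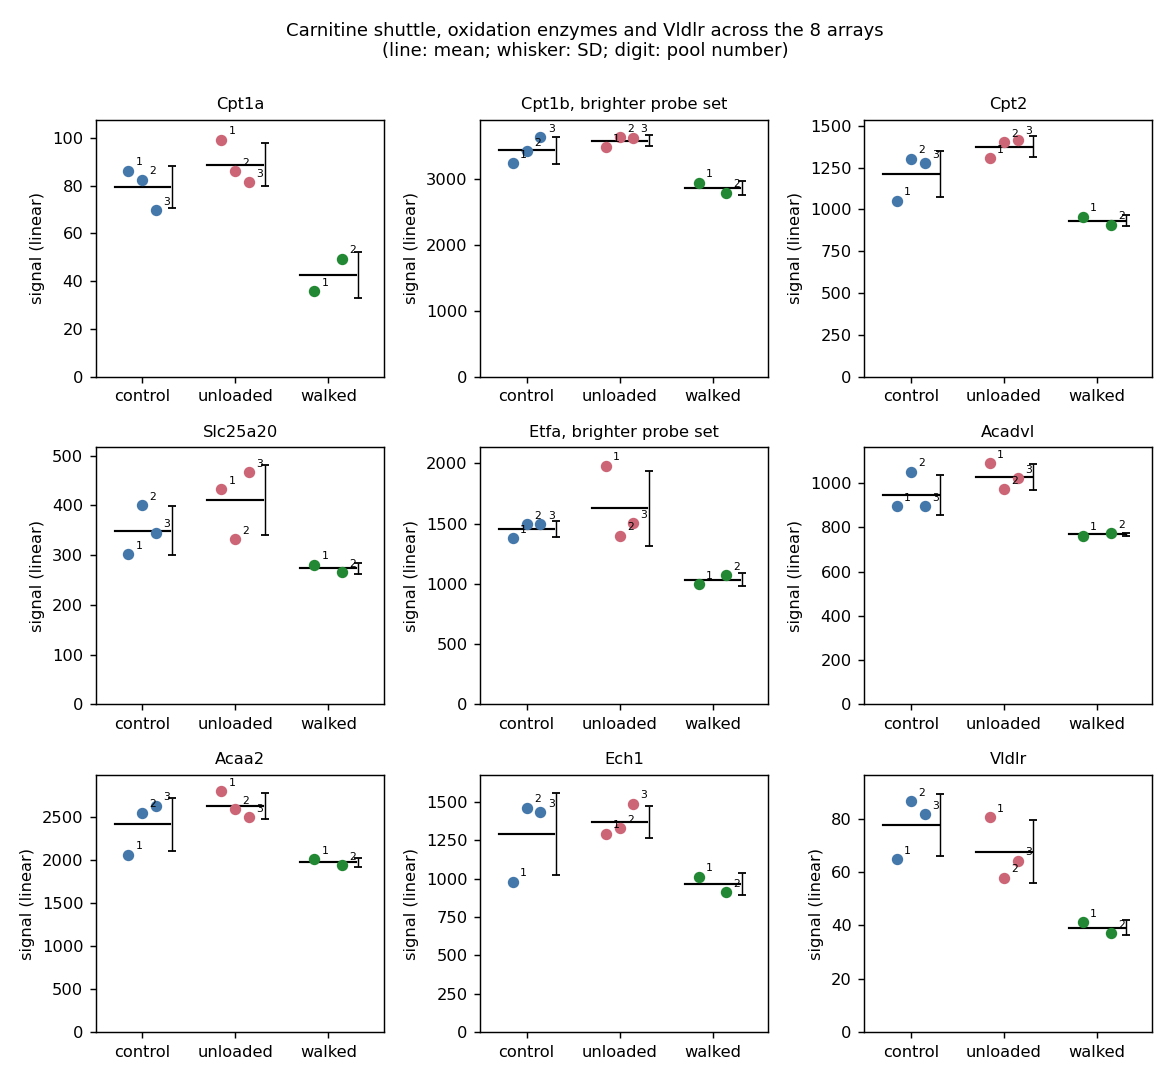
Signal (y axis, linear, from 0) of 9 members by group (x axis), with points as arrays and their pool number, lines as means and whiskers as SD (n = 3, 3 and 2). Both walked arrays are the lowest of the 8 in every panel but that of Ech1, where control pool 1 (980) lies between the walked pools (1013 and 912).

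The first dehydrogenation of the spiral gave 1 call among 5 genes. Etfa, the α subunit of the electron transfer flavoprotein, fell with walking, while the acyl-CoA dehydrogenases for very long (Acadvl), long (Acadl), medium (Acadm) and short chains (Acads) were called in no comparison. The median difference of the 5 was 0.07 for unloaded against control, with 0 called and 0 at an unadjusted p, and -0.20 for walked against unloaded.

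Etfa had 2 tested probe sets, both lower after walking. The brighter gave 1379, 1494 and 1495 in the control, 1980, 1399 and 1502 in the unloaded and 994 and 1070 in the walked pools. The dimmer gave 1231, 1379 and 1419, then 1487, 1314 and 1438, then 940 and 981. On both, the walked arrays were below all 6 others. Walked minus unloaded was -0.64 ± 0.16 (adjusted p = 0.0471) and -0.55 ± 0.13 (adjusted p = 0.0361). Walked minus control was -0.50 ± 0.16 (adjusted p = 0.0745) and -0.48 ± 0.13 (adjusted p = 0.0417). Each of the 3 calls was lost in 6 of 8 fits with an array left out, either walked pool among them, with an adjusted p up to 0.244.

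Acadvl, the enzyme of the inner membrane that takes the longest chains, gave 895, 1053 and 895 in the control, 1090, 972 and 1022 in the unloaded and 763 and 774 in the walked pools. Its walked arrays were the lowest, with walked minus unloaded at -0.42 ± 0.13 (adjusted p = 0.125). Acadl, Acadm and Acads differed less: walked minus unloaded was 0.10 (95% interval -0.21 to 0.41), -0.20 (-0.53 to 0.13) and 0.09 (-0.24 to 0.42). A second Acadl probe set was too dim to test.

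The Acadvl promoter is shown because it held 2 copies of AGGTCA, the hexamer bound by many nuclear receptors, marked in capitals (GRCr8 from RefSeq, chr10:55236706-55236955, - strand). They lie 169 to 164 and 17 to 12 bases before the start.
Acadvl: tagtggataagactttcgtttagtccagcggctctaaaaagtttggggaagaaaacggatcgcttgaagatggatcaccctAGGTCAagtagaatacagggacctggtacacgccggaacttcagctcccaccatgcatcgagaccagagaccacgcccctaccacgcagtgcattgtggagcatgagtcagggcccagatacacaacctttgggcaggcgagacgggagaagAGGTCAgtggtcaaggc

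The later steps of the spiral, hydration, a further dehydrogenation and thiolysis, gave 0 calls among 4 genes in each comparison, with 0, 1 and 0 at an unadjusted limma p under 0.05. Hadha and Hadhb encode the α and β subunits of the mitochondrial trifunctional protein. The 3 Hadha probe sets gave unloaded minus control of -0.12 (95% interval -0.39 to 0.14), -0.19 (-0.45 to 0.07) and 0.04 (-0.26 to 0.34), and walked minus unloaded of 0.04, 0.01 and -0.01. Hadhb gave 2417, 2419 and 1746 in the control, 2632, 2800 and 2561 in the unloaded and 2632 and 2789 in the walked pools. All 5 unloaded and walked arrays were above the controls, of which pool 3 was the lowest, and unloaded minus control was 0.30 ± 0.14 (adjusted p = 0.253). Neither subunit was called, and the difference between them was not tested.

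The starts of Hadha and Hadhb are 300 bases apart on opposite strands, so their upstream windows of 250 bases share 200 bases. The Hadha window (GRCr8 from RefSeq, chr6:31907551-31907800, + strand) is shown because it holds the bases shared with Hadhb, in capitals. The start of Hadhb itself lies outside it.
Hadha: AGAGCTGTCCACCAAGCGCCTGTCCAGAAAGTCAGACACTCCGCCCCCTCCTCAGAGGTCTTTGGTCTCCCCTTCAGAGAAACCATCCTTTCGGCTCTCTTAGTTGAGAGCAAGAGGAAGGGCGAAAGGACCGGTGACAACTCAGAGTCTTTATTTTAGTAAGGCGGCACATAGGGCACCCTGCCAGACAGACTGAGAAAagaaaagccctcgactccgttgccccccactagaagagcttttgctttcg

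Acaa2, the mitochondrial thiolase, gave 2055, 2544 and 2625 in the control, 2795, 2585 and 2494 in the unloaded and 2007 and 1935 in the walked pools. The walked arrays were the lowest, though control pool 1 was close, and walked minus unloaded was -0.41 ± 0.14 (adjusted p = 0.141). Hadh, the hydroxyacyl-CoA dehydrogenase of medium and short chains, was dim, at 20.2 to 67.5 over all arrays, and its interval for unloaded minus control was wide (-0.76 to 1.01).

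Unsaturated fatty acids need auxiliary enzymes, of which 3 were measured. Decr1, the 2,4-dienoyl-CoA reductase, rose with unloading on its brighter probe set, which gave 321, 386 and 231 in the control, 421, 568 and 611 in the unloaded and 509 and 424 in the walked pools. All unloaded and walked arrays lay above the controls. The rise was 0.78 ± 0.21 (1.72-fold, adjusted p = 0.0425). It was 0.58 without control pool 3, and the call was lost in 6 of 8 fits with an array left out, all but those without control pool 2 or unloaded pool 1 (adjusted p up to 0.137). The dimmer probe set gave 149, 209 and 109, then 212, 226 and 240, then 217 and 169, a difference of 0.58 ± 0.22 that was not called (adjusted p = 0.146).

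Eci1, the Δ3,Δ2-enoyl-CoA isomerase of mitochondria, had 4 probe sets, 3 of them tested, with different results. The brightest gave 2084, 1910 and 2399 in the control, 1757, 2355 and 1934 in the unloaded and 1761 and 1845 in the walked pools, and was called in no comparison. The next gave 1607, 1832 and 1913, then 1593, 1740 and 1504, then 1145 and 1120. On it the walked arrays stood clear below the rest, and it was called lower in walked against control (-0.65 ± 0.13, adjusted p = 0.0146), a call lost without walked pool 1 or 2 (adjusted p up to 0.102). On the brightest this difference was -0.23 ± 0.15.

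The Eci1 promoter (GRCr8 from RefSeq, chr10:13961000-13961249, + strand) is shown as the only one that held AGGTCA among the 8 called members with a promoter entry. The hexamer lies on the other strand, 94 to 89 bases before the start, and its complement is in capitals.
Eci1: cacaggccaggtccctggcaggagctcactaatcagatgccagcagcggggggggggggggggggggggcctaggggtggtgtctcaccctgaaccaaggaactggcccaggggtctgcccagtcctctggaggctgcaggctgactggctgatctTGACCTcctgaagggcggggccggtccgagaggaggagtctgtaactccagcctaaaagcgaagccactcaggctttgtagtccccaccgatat

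Ech1, the Δ3,5-Δ2,4-dienoyl-CoA isomerase, gave 980, 1462 and 1433 in the control, 1293, 1330 and 1490 in the unloaded and 1013 and 912 in the walked pools. The walked arrays were below the unloaded ones, but control pool 1 lay with them. Their difference from the unloaded arrays was -0.51 ± 0.18 (adjusted p = 0.159).

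**Figure D5:**
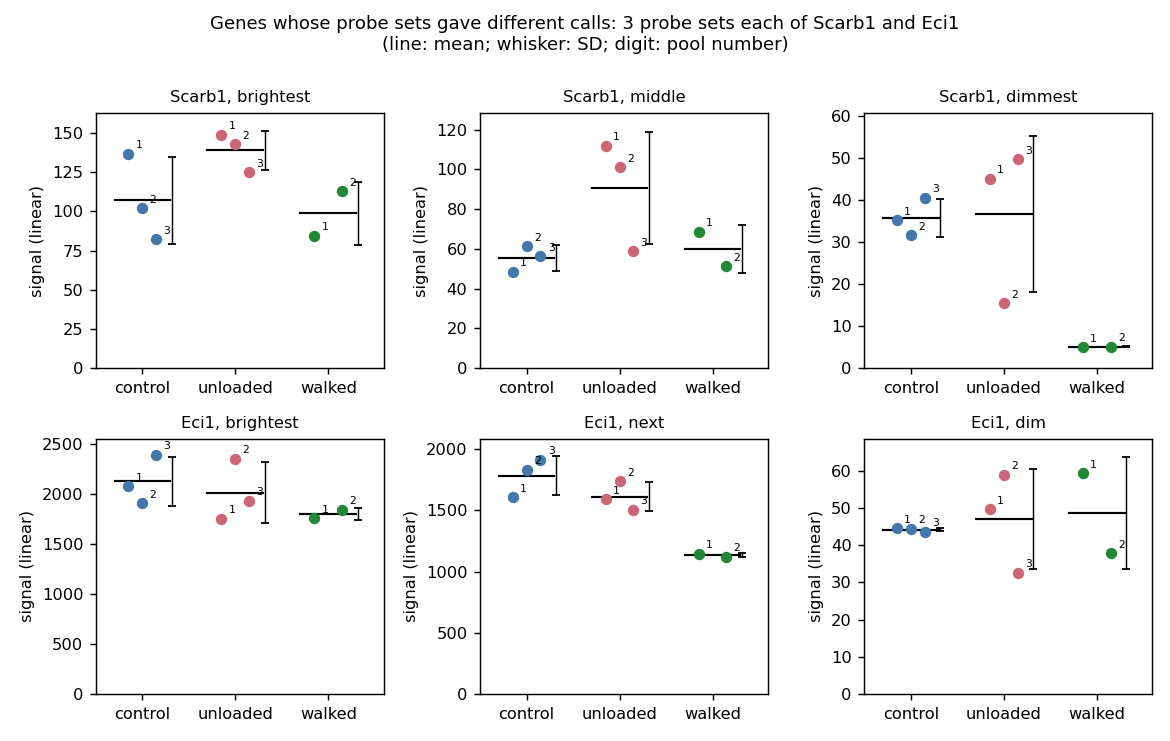
Signal (y axis, linear, from 0) on 3 probe sets each of Scarb1 (top) and Eci1 (bottom) by group (x axis), with points as arrays and their pool number, lines as means and whiskers as SD (n = 3, 3 and 2). The dimmest Scarb1 and the next brightest Eci1 probe sets have both walked arrays clear below the rest, at 5 and 5.11 and at 1145 and 1120, and the others do not.

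Peroxisomal oxidation was represented by Ehhadh, the bifunctional enzyme that hydrates and dehydrogenates acyl chains there. It gave 16.9, 24.1 and 10 in the control, 67.4, 66.5 and 53 in the unloaded and 28.6 and 20.4 in the walked pools. Unloaded arrays were clear of the rest, and walked and control arrays overlapped. The rise with unloading was 1.96 ± 0.40 (3.88-fold, adjusted p = 0.0122), walked minus unloaded was -1.36 ± 0.44 (adjusted p = 0.129) and walked minus control 0.60 ± 0.44 (adjusted p = 0.451). The control mean of 17 and the walked mean of 24.5 lay below the filter at 25.8. The rise was 1.62 without control pool 3 (adjusted p = 0.0245), and the call was lost without unloaded pool 1 or 2 (adjusted p up to 0.0613).

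The upstream 250 bases of Ehhadh are shown because its unloaded arrays stood clear of the rest (GRCr8 from RefSeq, chr11:92746159-92746408, + strand).
Ehhadh: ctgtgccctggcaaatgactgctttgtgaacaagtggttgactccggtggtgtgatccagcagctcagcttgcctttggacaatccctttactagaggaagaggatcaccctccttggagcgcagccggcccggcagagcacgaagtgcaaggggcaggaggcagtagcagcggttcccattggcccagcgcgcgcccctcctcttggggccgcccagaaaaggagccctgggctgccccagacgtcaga

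The synthesis genes gave 0 calls in each comparison and 0 at an unadjusted limma p under 0.05. Acaca, the acetyl-CoA carboxylase of the cytosol, gave 24.8, 39.4 and 36.2 in the control, 32.7, 22.8 and 20.1 in the unloaded and 53.3 and 34.6 in the walked pools, close to the filter. The walked arrays differed from the unloaded by 0.80 ± 0.40 (adjusted p = 0.339). Acacb, the carboxylase at the mitochondrial membrane, gave 85.2, 100 and 39.2, then 106, 163 and 63, then 123 and 116, with pool 3 lowest in both the control and the unloaded group. Fasn, fatty acid synthase, had 2 probe sets, and walked minus unloaded was 0.39 ± 0.24 on the brighter and 0.05 ± 0.22 on the dimmer. The median of these 3 genes was 0.39 for walked against unloaded, of opposite sign to that of the shuttle, and the difference between the lists was not tested.

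Ppara, the nuclear receptor that senses fatty acids and drives many genes of this route, gave 60.8, 44.1 and 54.8 in the control, 49, 61.1 and 42.4 in the unloaded and 51 and 53.1 in the walked pools. All groups overlapped. Unloaded minus control was -0.07 (95% interval -0.59 to 0.45) and walked minus unloaded 0.05 (-0.53 to 0.63).

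Of 92 other genes listed for fatty acid handling and its control, 48 were tested. With unloading 3 rose (Ucp3, Scp2 and Pdk4; 6.25%, against 3.71% of all genes) and 2 fell (Bdh1 and Srebf1; 4.17%, against 2.5%). After walking 4 fell against unloaded (G0s2, Ucp3, Gpam and Prkab1; 8.33%, against 1.74%) and 5 were lower than control (G0s2, Ucp3, Gpam, Bdh1 and Prkag1; 10.4%, against 4.63%), while 0 rose in either, with 1 higher in each at an unadjusted limma p. The medians of the 48 were 0.02, -0.16 and -0.15 in the order of comparisons above. This list too was chosen with earlier results of these data known, so its shares are not an independent result.

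G0s2, an inhibitor of the fat droplet lipase, gave 142, 133 and 226 in the control, 292, 320 and 386 in the unloaded and 31.1 and 12.4 in the walked pools. The groups did not overlap. G0s2 fell by 4.07 ± 0.35 on the log2 scale in walked against unloaded soleus (adjusted p = 4.06e-05). Ucp3, a mitochondrial carrier of muscle linked to fatty acid use, differed by 1.08 ± 0.20 with unloading and by -2.00 ± 0.23 with walking after it. Gpam, which starts glycerolipid synthesis, differed by -0.87 ± 0.14 in walked against unloaded soleus.

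Scp2, a peroxisomal lipid carrier and thiolase, rose by 1.06 ± 0.23 with unloading (adjusted p = 0.0165). It gave 169, 199 and 100 in the control and 324, 314 and 301 in the unloaded pools, with control pool 3 again the lowest. Bdh1, the hydroxybutyrate dehydrogenase of ketone use, fell by 0.95 ± 0.17 with unloading (adjusted p = 0.00688). Srebf1, a transcription factor of lipid synthesis, fell by 1.19 ± 0.24 (adjusted p = 0.0125).

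Markers of the soleus muscle fibre also differed between groups. The 8 tested, of 12 listed, summed to 23989 to 26624 in the control, 26652 to 37670 in the unloaded and 34652 to 40000 in the walked pools. With unloading 0 of the 8 were called higher, with 4 higher at an unadjusted limma p under 0.05, and Tpm3 fell (-0.95, adjusted p = 0.00594). In walked against unloaded 0 were called, with 1 higher at an unadjusted p. In walked against control 5 of the 8 were called higher (Acta1, Ckm, Myl2, Myl3 and Tnni1), against 3.74% of all genes. Both walked arrays of 4 of the 5 shuttle genes and of Etfa were below all controls, as were those of 27.7% of all genes. The 5 smooth muscle markers summed to 4008 to 4783, 3712 to 4923 and 4587 to 5706, with Tagln called lower with unloading (-0.96, adjusted p = 0.0223). The 4 red cell markers summed to 6175 to 7402, 5851 to 8266 and 4376 to 6106. The part of these shifts in the members' values was not tested.

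Promoter sequence from RefSeq (GRCr8) was held for 23 of the 33 members and for 8 of the 11 called on any probe set. In all, 5 motifs were searched on both strands of the 250 bases before each start in the table, 33469 promoters. AGGTCA was in 3 of 23 members (13%: Acadvl, Eci1 and Acacb) against 14.1% of all promoters, and in 1 of the 8 called members. TGACGTCA, the cAMP response element, was in Acadm alone (4.35%, against 1.59%). The E-box CACGTG, TCAAGGTCA (an extended form that contains AGGTCA) and the perfect DR1 element, a pair of such hexamers and the classic site of the PPAR family, were in 0 of 23, against 5.59%, 0.388% and 0.0508% of all promoters. These are matches of letters in short windows and show neither binding nor its absence.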

How the data were processed

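Soleus RNA from 3 control, 3 unloaded and 2 walked pools was measured on 8 one-colour Affymetrix arrays, each with biotin-labelled cRNA from 10 microg of total RNA, per the labels. The deposited values were signal intensity on a linear scale, 1 per probe set. Per the submitters' processing notes, the authors used MAS5, whose version and scaling target no source used here gives. MAS5 subtracts a local background and mismatch estimate, so dim signals are noisy.

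Each array was scaled to a 2% trimmed mean of 148.6, values below the 10th percentile (4.1) were raised to it, and log2 was taken. Probe sets with a mean signal below the 40th percentile (25.8) were left out, and 5244 of 8740 were tested. limma 3.58.1 (R 4.3.3; lmFit, contrasts.fit, eBayes with a trend, two-sided) was fitted to all 8 arrays with 3 groups (residual df 5, prior df 6), with Benjamini-Hochberg adjustment over the 5244. The procedure was tested on simulated data. An exact permutation test of a single gene could reach no p below 0.1 in any of the 3 comparisons, so calls rest on spread pooled across genes. The number of arrays limits the precision.

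Symbols came from the platform annotation: 7006 probe sets had 1 symbol, 308 had several and 1426 had none here. A gene was represented by its brightest tested probe set (3154 genes). The members and lists were chosen with earlier results of these data known. Members called on any probe set, or whose probe sets differed, are given array by array and the rest by range, and at most 6 other pathway genes are named with values, by smallest p. Alternatives were quantile normalization, no rescaling, a floor at the 20th percentile or none, a filter at the 60th percentile or none, no trend, 2-group fits, pool number as a block, the mean over a gene's probe sets, probe sets with a plain name ending, and each array left out. RNA quality was not analysed here.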

Additional observations from a re-analysis of the deposited data

How the results depend on the processing

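The members called numbered 5 for unloaded against control, 3 for walked against unloaded and 2 for walked against control. With an array left out they ranged from 1 to 4 (1 without unloaded pool 2), from 0 to 3 (0 without unloaded pool 1 or walked pool 1) and from 0 to 3 (0 without walked pool 1 or 2). With no filter they were 2, 0 and 0, with 6, 11 and 9 at an unadjusted limma p under 0.05, and 31 members were tested. Without a trend they were 3 and 1 in the first 2 comparisons, and with plain-ending probe sets 3 in the first. For walked against control they were 4 under the 60th percentile filter (2 higher, Cd36 and Fabp4, and 2 lower) and 6 both for the mean over probe sets and for plain-ending probe sets (the same 2 higher and 4 lower), and without control pool 2 they were those 2 higher and 0 lower, so the main count of 0 higher depends on these choices. Calls over all genes, in either direction, shifted too. From 196, 129 and 264 in the main fit they went to 133, 95 and 118 with no filter. Without a trend they were 132 and 81 in the first 2 comparisons. They were 123 without unloaded pool 2 for unloaded against control and 91 without unloaded pool 1 for walked against unloaded. For walked against control they were 304 under the 60th percentile filter and 317 for the mean over probe sets. The cause of these shifts was not tested.

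Deviations from the group mean correlated at -0.0669 to 0.052 in 7 pairs of pools with the same number. In 14 pairs with different numbers they correlated at -0.0682 to 0.111. Each group mean rests on few pools, and the deviations of the walked pools mirror each other, so these values are not independent. They cannot decide whether the numbers pair the pools. With the pool number as a block the member counts were 4, 1 and 0, with 8, 12 and 7 at an unadjusted limma p under 0.05. Over all genes 202, 96 and 124 were then called.

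For single probe sets, of 1056 values under the other alternatives 990 kept their sign and side of the threshold, 40 lost a call, 14 gained one and 12 that were never called changed sign. Of 813 values with an array left out these were 708, 64, 8 and 33. No called value changed sign in either. Fabp4 for unloaded against control kept its call when any array was left out. The walked group had 2 pools, no spread between rats was measured, and the calls of Cpt2 and Etfa in walked against unloaded lay just under the adjusted threshold, at 0.0463 and 0.0471.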
